A study of Mus musculus with 14 samples.

Results

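The genes that encode inhibitors of cyclin-dependent kinases (CDKs) and the D-type cyclins were followed in cultured mouse hepatic stellate cells (HSCs). The 10 listed genes were Cdkn1a, Cdkn1b and Cdkn1c of the Cip/Kip family, Cdkn2a, Cdkn2b, Cdkn2c and Cdkn2d of the Ink4 family, and the D-type cyclins Ccnd1, Ccnd2 and Ccnd3. Members were taken from the array by exact gene symbol, with the probe set of the highest mean over all arrays where a gene had several. This gave 9 of the 10 genes, out of 19938 genes with a probe set of their own. Cdkn1a was the exception, because its only probe set is also annotated to the long non-coding RNA gene 4930567H12Rik.

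HSCs were isolated from livers of BalbC mice (Balb/cByJ in the methods of the study), seeded, washed, and then kept in culture with or without 2.5 mM valproic acid (VPA), a fatty acid that inhibits histone deacetylases. The groups were VPA4h and Ctrl4h, Ctrl16h, and VPA64h and Ctrl64h, where the number gives the hours of culture. VPA4h, Ctrl4h, VPA64h and Ctrl64h had 3 arrays each, and Ctrl16h had 2. Culture on plastic activates HSCs by itself, so Ctrl16h and Ctrl64h differ from Ctrl4h by time in culture, and there was no VPA group at 16 h. The cells were primary, no genetic change or transgene is named for the mice, and their age is not given in the sources used here. Values are log2 expression after RMA normalisation, and levels were compared only between groups for the same probe set. In what follows a gene rose or fell where its limma adjusted p was under 0.05 and its fold change at least 2, whereas "higher" or "lower" marks an adjusted p under 0.05 with a smaller change.

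D-type cyclins bind Cdk4 and Cdk6, and the active kinases phosphorylate the retinoblastoma protein and its relatives, which releases E2F factors to switch on genes for DNA replication. Ink4 proteins bind Cdk4 and Cdk6 and keep the cyclin off, whereas Cip/Kip proteins bind complexes of cyclin and CDK and mainly restrain Cdk2. In liver, quiescent HSCs rarely divide, and they re-enter the cell cycle when they turn into myofibroblasts.

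The arrays were alike in total signal, with a median over the tested probe sets of 6.34 to 6.41. Arrays of the same group differed by a root mean square of 0.19 to 0.24 in log2 expression. The labelled cell type was checked with 14 HSC markers, among them the activation genes Acta2, Lox and Col3a1, and all 14 were measured. Summed over the list on the linear scale, they gave 32525 to 35352 in VPA4h and 32660 to 34384 in Ctrl4h, 25246 to 26736 in Ctrl16h, and 25058 to 27650 in VPA64h against 36707 to 39321 in Ctrl64h. Reln and Des, a secreted glycoprotein and an intermediate filament typical of HSCs, averaged 12.45 and 9.06 in VPA4h and 12.29 and 8.59 in Ctrl4h. Gfap, a filament of quiescent HSCs, averaged 5.63 in VPA4h and 5.68 in Ctrl4h. The table holds no detection calls, so no marker can be called absent. The 14 markers of sinusoidal endothelial cells summed to 6851 to 7960 in VPA4h and 5926 to 7553 in Ctrl4h, to 3291 to 3404 in Ctrl16h, and to 2916 to 3425 in VPA64h against 5348 to 6595 in Ctrl64h. The marker lists of hepatocytes, Kupffer cells, lymphocytes and of cholangiocytes with mesothelial cells gave sums that overlapped between VPA and control arrays at 4 h and at 64 h. In bulk RNA, fewer cells of a type and less RNA per cell cannot be told apart.

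Most of these genes differed between VPA4h and Ctrl4h. Of changes of at least 2-fold there was 1 among the 9 members, in the Ink4 gene Cdkn2d, which rose, where 0.867% of all tested probe sets rose. At any size of change 6 members were higher in VPA4h, against 11.5% of all tested probe sets, and 1 was lower, against 9.96%. The higher members were Cdkn1b, Cdkn2c, Cdkn2d, Ccnd1, Ccnd2 and Ccnd3, and the lower one was Cdkn2b. The median change of the 9 members was 0.50, compared with -0.03 over all tested probe sets. After 64 h none of the 9 members rose or fell with VPA, where 2.14% of all probe sets did. At any size Cdkn1c, Cdkn2b, Ccnd1 and Ccnd2 were higher in VPA64h, 4 of 9 against 12.8% of all probe sets, and none was lower. The median change of the 9 members was 0.31, compared with 0 over all tested probe sets.

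**Figure D1:**
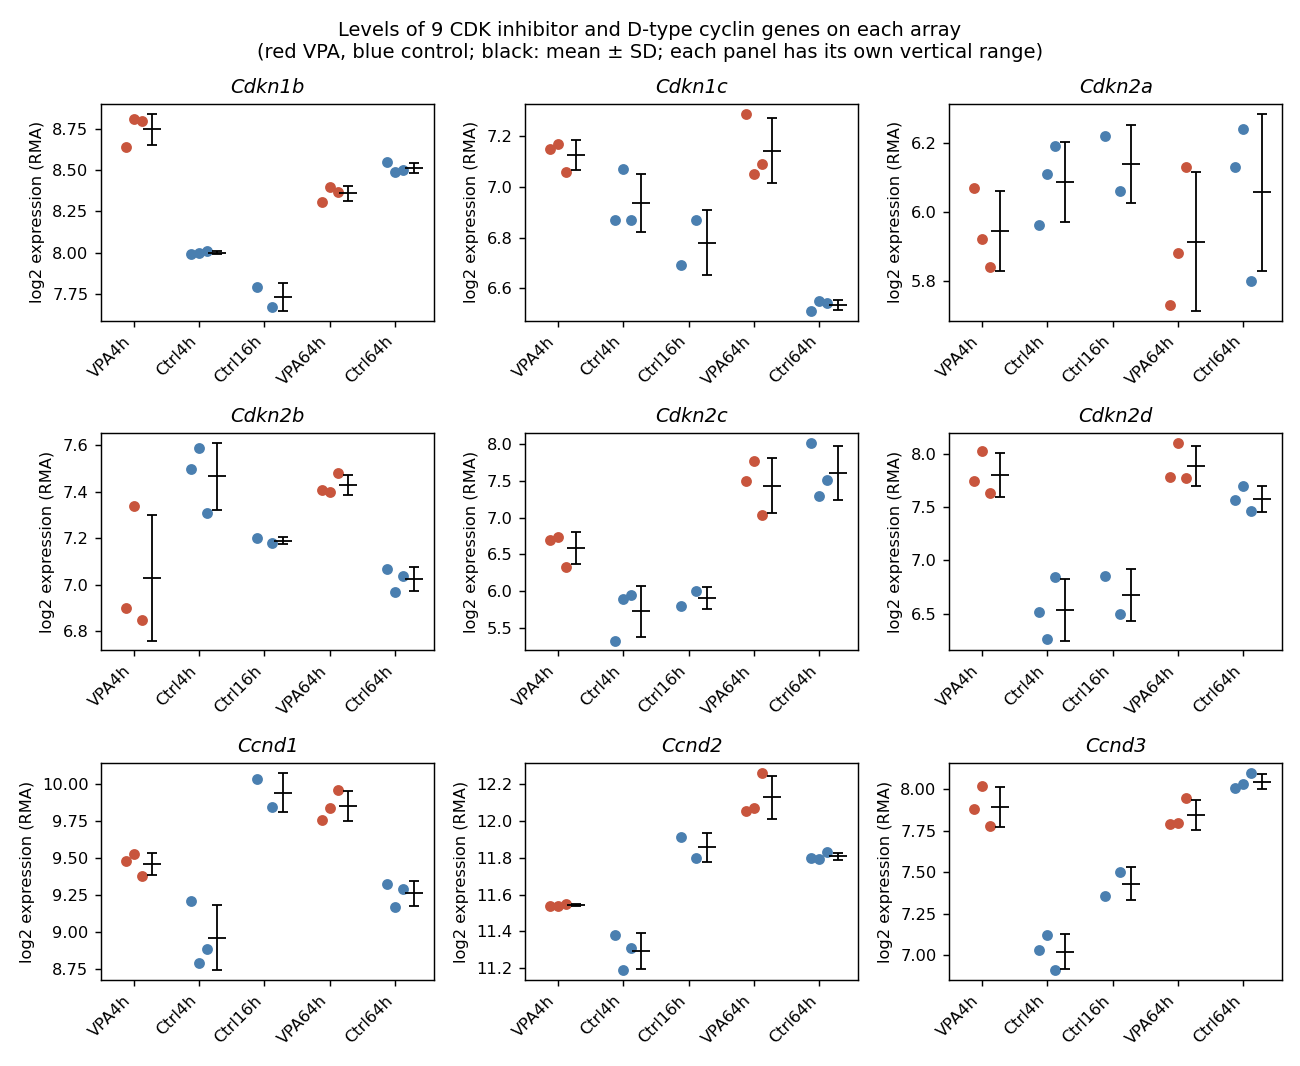
Log2 expression (vertical axis, RMA values, its own range in each panel) of the 9 members on each of the 14 arrays, by group (horizontal axis), with VPA in red, control in blue and mean ± SD in black. The VPA4h arrays lie above the Ctrl4h arrays for Cdkn1b, Cdkn2c, Cdkn2d and the 3 D-type cyclins, whereas the VPA64h arrays lie above the Ctrl64h arrays for Cdkn1c, Cdkn2b, Cdkn2d, Ccnd1 and Ccnd2. For Cdkn1b and Ccnd3 the VPA64h arrays lie below the Ctrl64h arrays. How many of all probe sets stand apart in this way was not counted.

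The start regions of the members that differed between VPA4h and Ctrl4h are shown because these are the members that differed at the earliest time. RefSeq windows of 300 bases around annotated transcript starts (GRCm38.p6) were at hand for 7 of the 10 genes, in 11 windows, and Cdkn1c, Ccnd1 and Ccnd2 had none in the table used. Each window below is printed 5′ to 3′ on the strand of its gene, with GC boxes, the letters GGGCGG on either strand, in capitals.
Cdkn1b, chr6:134920151-134920450, plus strand: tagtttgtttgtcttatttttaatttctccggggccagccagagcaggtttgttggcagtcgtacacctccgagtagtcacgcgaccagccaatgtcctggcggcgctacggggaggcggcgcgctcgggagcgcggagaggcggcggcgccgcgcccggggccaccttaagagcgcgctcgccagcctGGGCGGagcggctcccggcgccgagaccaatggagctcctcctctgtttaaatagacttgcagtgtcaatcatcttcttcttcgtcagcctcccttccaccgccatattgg
Cdkn2b, chr4:89310983-89311282, minus strand: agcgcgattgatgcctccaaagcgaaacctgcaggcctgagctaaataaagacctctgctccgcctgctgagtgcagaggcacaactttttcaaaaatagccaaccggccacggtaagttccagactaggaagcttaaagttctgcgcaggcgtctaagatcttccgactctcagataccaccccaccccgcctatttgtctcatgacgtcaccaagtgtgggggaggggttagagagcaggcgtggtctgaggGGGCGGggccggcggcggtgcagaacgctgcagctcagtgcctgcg
Cdkn2c, chr4:109665323-109665622, minus strand: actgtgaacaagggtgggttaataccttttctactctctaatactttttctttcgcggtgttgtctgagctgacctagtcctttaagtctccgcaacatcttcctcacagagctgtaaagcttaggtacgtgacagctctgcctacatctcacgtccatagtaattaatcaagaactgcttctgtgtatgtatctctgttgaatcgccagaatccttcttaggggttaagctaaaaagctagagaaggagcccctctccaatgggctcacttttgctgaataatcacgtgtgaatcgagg
Cdkn2c, chr4:109666707-109667006, minus strand: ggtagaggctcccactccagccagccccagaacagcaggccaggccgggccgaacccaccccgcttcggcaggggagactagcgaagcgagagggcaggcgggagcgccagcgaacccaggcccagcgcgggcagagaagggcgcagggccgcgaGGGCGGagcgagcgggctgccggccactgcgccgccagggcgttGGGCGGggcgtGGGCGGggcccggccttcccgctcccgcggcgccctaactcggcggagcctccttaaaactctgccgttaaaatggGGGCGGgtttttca
Cdkn2d, chr9:21291160-21291459, minus strand: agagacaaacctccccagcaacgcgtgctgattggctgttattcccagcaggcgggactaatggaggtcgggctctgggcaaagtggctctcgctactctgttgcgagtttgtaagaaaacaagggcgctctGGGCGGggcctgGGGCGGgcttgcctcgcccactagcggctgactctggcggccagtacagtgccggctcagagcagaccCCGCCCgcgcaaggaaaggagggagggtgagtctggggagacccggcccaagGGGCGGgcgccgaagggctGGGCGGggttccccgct
Ccnd3, chr17:47504801-47505100, plus strand: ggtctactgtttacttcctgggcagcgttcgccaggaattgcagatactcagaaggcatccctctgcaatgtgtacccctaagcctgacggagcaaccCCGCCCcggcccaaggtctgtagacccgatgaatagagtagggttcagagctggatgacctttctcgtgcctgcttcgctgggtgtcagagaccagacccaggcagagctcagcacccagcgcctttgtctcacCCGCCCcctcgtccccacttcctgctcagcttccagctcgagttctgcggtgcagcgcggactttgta
Ccnd3, chr17:47593217-47593516, plus strand: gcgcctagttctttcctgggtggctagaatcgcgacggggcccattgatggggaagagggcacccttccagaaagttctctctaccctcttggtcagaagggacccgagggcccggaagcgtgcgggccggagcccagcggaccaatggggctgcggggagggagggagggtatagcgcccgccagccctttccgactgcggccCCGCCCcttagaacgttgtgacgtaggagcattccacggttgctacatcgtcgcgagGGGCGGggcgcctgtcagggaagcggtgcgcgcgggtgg
The GC box is the letters bound by Sp1 and related factors. The Cdkn2d window held 5 GC boxes, and the upstream Cdkn2c window held 4, whereas the other Cdkn2c window held 0. Both Ccnd3 windows held 2, and those of Cdkn1b and Cdkn2b held 1 each. Of all 32851 windows of this length, 35.7% held at least 1 GC box and 10.7% held at least 3, and among the members' windows 9 of 11 held at least 1. The letters CCAAT, on either strand, occurred 3 times in the Cdkn1b window and at least once in 5 of the 11 windows. Of all windows 37.4% held them at least once and 3.37% at least 3 times. TGACGTCA, the cyclic AMP response element, reads the same on both strands and was found once in the Cdkn2b window and in 1.79% of all windows. TATAAA was in none of the 11 windows and in 13.6% of all windows. The start regions were not measured here, and a match describes the letters only.

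Among the Ink4 inhibitors, Cdkn2d, which encodes p19Ink4d, had the largest difference between VPA4h and Ctrl4h. Its log2 expression was 7.74, 8.03 and 7.63 in VPA4h, against 6.51, 6.26 and 6.84 in Ctrl4h. No array of one group reached the other. The change was 1.26 ± 0.15 (SE), or 2.40-fold, with an adjusted p of 1.36e-05. In control culture Ctrl16h gave 6.85 and 6.50, close to Ctrl4h, with a change of 0.14 ± 0.17 and an adjusted p of 0.652. Ctrl64h gave 7.57, 7.70 and 7.46, so that Cdkn2d rose against Ctrl4h by 1.04 ± 0.15, with an adjusted p of 2.36e-05. VPA64h gave 7.78, 8.10 and 7.77, all above the Ctrl64h arrays, but the difference of 0.31 ± 0.15 missed the limit with an adjusted p of 0.16 and a 95% interval of -0.01 to 0.63. In the order of group means Ctrl4h and Ctrl16h were lowest with overlapping arrays, and then came Ctrl64h, VPA4h and VPA64h, of which the Ctrl64h and VPA4h arrays overlapped and the VPA4h and VPA64h arrays overlapped. The rise in control culture lay near the 2-fold limit. It was 0.90 without Ctrl4h replicate 2, 0.98 without Ctrl64h replicate 2, 0.96 after a further quantile normalisation and 0.80 with arrays centred on housekeeping genes, each with an adjusted p under 0.05.

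Cdkn2c, which encodes p18Ink4c, had the widest range of the 9 members, with 1.88 between its lowest and highest group means. Control arrays gave 5.33, 5.90 and 5.95 in Ctrl4h and 5.80 and 6.01 in Ctrl16h, and 8.01, 7.29 and 7.51 in Ctrl64h. All Ctrl64h arrays lay above all earlier control arrays, and the gene rose in Ctrl64h by 1.88 ± 0.21 against Ctrl4h (adjusted p 1.4e-06) and by 1.70 ± 0.23 against Ctrl16h (adjusted p 2.72e-05). In VPA4h it was already at 6.69, 6.73 and 6.33, against the 3 Ctrl4h values above, and higher by 0.86 ± 0.21, with an adjusted p of 0.00623. The VPA4h arrays thus stood between the early and the late controls. With VPA for 64 h it was at 7.49, 7.77 and 7.03, which overlapped Ctrl64h, with a change of -0.17 ± 0.21, an adjusted p of 0.613 and a 95% interval of -0.62 to 0.27. Centred on housekeeping genes, the early difference was 1.05 and passed the 2-fold limit.

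Cdkn2b and Cdkn2a are neighbours in the genome and encode p15Ink4b, and p16Ink4a together with p19Arf, which acts on p53 through Mdm2. Cdkn2b was the member that passed the adjusted p limit in opposite directions at the 2 times. It was at 6.90, 7.34 and 6.85 in VPA4h, against 7.50, 7.59 and 7.31 in Ctrl4h, with VPA4h replicate 2 overlapping the controls. The difference was -0.43 ± 0.11, with an adjusted p of 0.0103, and 4 of the 23 limma alternatives gave an adjusted p of 0.05 or more. These were -0.24 with an adjusted p of 0.144 when centred on housekeeping genes, and adjusted p of 0.0559 without Ctrl4h replicate 2, 0.0582 without VPA4h replicate 1 and 0.0617 without VPA4h replicate 3. At 64 h the arrays did not overlap, with 7.41, 7.40 and 7.48 in VPA64h and 7.07, 6.97 and 7.04 in Ctrl64h. Here Cdkn2b was higher with VPA by 0.40 ± 0.11, with an adjusted p of 0.017, which was 0.0567 without Ctrl64h replicate 2, 0.0589 without VPA64h replicate 3 and 0.0689 when centred on housekeeping genes. In control culture it was lower in Ctrl64h than in Ctrl4h by 0.43 on the log2 scale (change -0.43 ± 0.11, adjusted p 0.0042), and Ctrl16h, at 7.20 and 7.18, lay between them. The signal of Cdkn2a, by contrast, varied little. Over all 14 arrays it lay between 5.73 and 6.24, its group means differed by at most 0.23, and every pair of neighbouring groups overlapped. All these values lie below 6.34, the lowest array median of the tested probe sets. Without detection calls, a steady level of the transcript and background signal cannot be told apart here. The adjusted p of Cdkn2a was 0.512 for VPA4h against Ctrl4h and 0.453 for VPA64h against Ctrl64h, with 95% intervals of -0.41 to 0.12 for both. This probe set reads Cdkn2a as 1 value, so p16Ink4a and p19Arf transcripts were not separated.

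The Cip/Kip gene Cdkn1b encodes p27Kip1, which holds cells in quiescence. Its level was 8.64, 8.81 and 8.80 in VPA4h, against 7.99, 8.0 and 8.01 in Ctrl4h. On this probe set all VPA4h arrays lay above all other arrays of the series. The early difference was 0.75 ± 0.08, or 1.68-fold, with an adjusted p of 3.2e-06. In Ctrl16h the values 7.79 and 7.67 were the lowest, lower than Ctrl4h by 0.27 on the log2 scale (change -0.27 ± 0.09, adjusted p 0.0358). This difference was not secure, since 8 of the 23 limma alternatives gave an adjusted p of 0.05 or more. The adjusted p was 0.0598 with the replicate number as a block, 0.0643 to 0.262 without any one of the 5 arrays of these groups, and 0.417 for the mean of both probe sets, and the change ranged from -0.65 to -0.15. Ctrl64h, at 8.55, 8.49 and 8.50, was higher than Ctrl16h by 0.78 ± 0.09 and higher than Ctrl4h by 0.51 ± 0.08, with adjusted p of 3.13e-06 and 3.56e-05. The VPA64h arrays, at 8.31, 8.40 and 8.37, were below these without overlap, but the difference of -0.15 ± 0.08 had an adjusted p of 0.186. Cdkn1b was lower in VPA64h than in VPA4h, with a change of -0.39 ± 0.08 and an adjusted p of 0.000542, which was 0.111 for the mean of its probe sets. Its second probe set gave 7.11, 7.15 and 7.59 in VPA4h and 6.23, 6.51 and 6.32 in Ctrl4h, a difference of 0.93 ± 0.16 with an adjusted p of 0.000451. There the VPA4h arrays overlapped those of VPA64h and Ctrl64h. The second probe set also rose in Ctrl64h against Ctrl16h, by 1.01 ± 0.18 with an adjusted p of 0.000338. Between VPA64h and Ctrl64h the second probe set differed by -0.05 ± 0.16, with an adjusted p of 0.872, and between VPA64h and VPA4h by -0.01, so the lower level in VPA64h than in VPA4h was seen on the first probe set only.

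Cdkn1c encodes p57Kip2 and is an imprinted gene. It showed the opposite timing to Cdkn1b. VPA4h gave 7.15, 7.17 and 7.06 and Ctrl4h gave 6.87, 7.07 and 6.87, which overlapped by a single control array, with a difference of 0.19 ± 0.09 and an adjusted p of 0.179. VPA64h gave 7.29, 7.05 and 7.09, against 6.51, 6.55 and 6.54 in Ctrl64h. The groups stood clearly apart, and Cdkn1c was higher in VPA64h by 0.61 ± 0.09, or 1.53-fold, with an adjusted p of 0.000132. The controls were lower at the late time, with a change of -0.40 ± 0.09 between Ctrl64h and Ctrl4h (adjusted p 0.0013), whereas VPA64h and VPA4h differed by 0.02 ± 0.09 (adjusted p 0.873). Of 9 measured genes listed as neighbours of Cdkn1c in its imprinted region only Cd81, a tetraspanin, rose in VPA4h, where 0.867% of all tested probe sets rose. Its change against Ctrl4h was 1.07 ± 0.08, with an adjusted p of 2.53e-07. None of the 9 rose or fell between VPA64h and Ctrl64h, where 2.14% of all tested probe sets did.

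Cdkn1a, which encodes the p53-induced inhibitor p21Cip1, can only be read together with 4930567H12Rik. The shared probe set gave 9.11, 9.01 and 9.07 in VPA4h, against 8.75, 8.13 and 8.55 in Ctrl4h, and was higher by 0.59 ± 0.12, with an adjusted p of 0.00201. The signal in control culture reached 10.55 and 10.47 in Ctrl16h. This was a rise of 2.03 ± 0.14 over Ctrl4h with an adjusted p of 1.04e-07. At 64 h the arrays overlapped, with 10.30, 10.33 and 10.45 in VPA64h and 10.36, 10.19 and 10.38 in Ctrl64h, and the difference of 0.05 ± 0.12 had an adjusted p of 0.832. Which of the 2 transcripts gave this signal was not tested.

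All 3 D-type cyclins were higher in VPA4h than in Ctrl4h. Ccnd3 showed the largest of these differences, with 7.88, 8.02 and 7.78 in VPA4h and 7.03, 7.12 and 6.91 in Ctrl4h. The groups did not overlap, and the difference was 0.87 ± 0.09, or 1.83-fold, with an adjusted p of 3.29e-06. In control culture Ccnd3 was higher at each later time, with 7.36 and 7.50 in Ctrl16h and 8.01, 8.03 and 8.10 in Ctrl64h. Ctrl64h rose over Ctrl4h by 1.03 ± 0.09, with an adjusted p of 9.42e-08. VPA64h, at 7.79, 7.80 and 7.95, lay below Ctrl64h without overlap, with a difference of -0.20 ± 0.09 that missed the limit at an adjusted p of 0.131. The Ctrl64h rise was just past 2-fold. It was 0.97 without Ctrl4h replicate 3, just under 1 without Ctrl64h replicate 3, 0.88 after a further quantile normalisation and 0.79 centred on housekeeping genes, where the call of a 2-fold rise was lost at an adjusted p still under 0.05.

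Ccnd1, the D-type cyclin best known as a growth factor target, followed another course. Its values were 9.48, 9.53 and 9.38 in VPA4h, against 9.21, 8.79 and 8.89 in Ctrl4h, a difference of 0.50 ± 0.11 with an adjusted p of 0.00219. Controls peaked at 16 h, with 10.04 and 9.85 in Ctrl16h, and then gave 9.33, 9.17 and 9.29 in Ctrl64h. Ctrl16h was higher than Ctrl4h by 0.98 ± 0.12, or 1.98-fold, with an adjusted p of 2.33e-05, and Ctrl64h was lower than Ctrl16h with a change of -0.68 ± 0.12 and an adjusted p of 0.000249. The values in VPA64h were 9.76, 9.84 and 9.96, above every Ctrl64h array. Ccnd1 was higher in VPA64h than in Ctrl64h by 0.59 ± 0.11, or 1.51-fold, with an adjusted p of 0.000704. The VPA64h arrays overlapped those of Ctrl16h. Without Ctrl4h replicate 1 or without Ctrl16h replicate 2 the difference at 16 h was 1.11 or 1.08 and passed the 2-fold limit.

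Ccnd2 was higher with VPA at both times, as Ccnd1 was. It gave 11.54, 11.54 and 11.55 in VPA4h and 11.38, 11.19 and 11.31 in Ctrl4h, a difference of 0.25 ± 0.08 with an adjusted p of 0.0378. VPA64h gave 12.05, 12.07 and 12.26, against 11.80, 11.79 and 11.83 in Ctrl64h, a difference of 0.32 ± 0.08 with an adjusted p of 0.00823. Both pairs of groups stood apart without overlap. Ctrl16h, at 11.91 and 11.80, was higher than Ctrl4h by 0.56 ± 0.09 with an adjusted p of 0.000321 and overlapped Ctrl64h. The early difference was the least secure, since 7 of the 23 limma alternatives run for it gave an adjusted p of 0.05 or more, up to 0.167 without Ctrl4h replicate 2. The others left out Ctrl4h replicate 3 or any VPA4h array, fitted only the compared groups, or tested all probe sets. The late difference was 0.23 with an adjusted p of 0.0973 when centred on housekeeping genes.

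**Figure D2:**
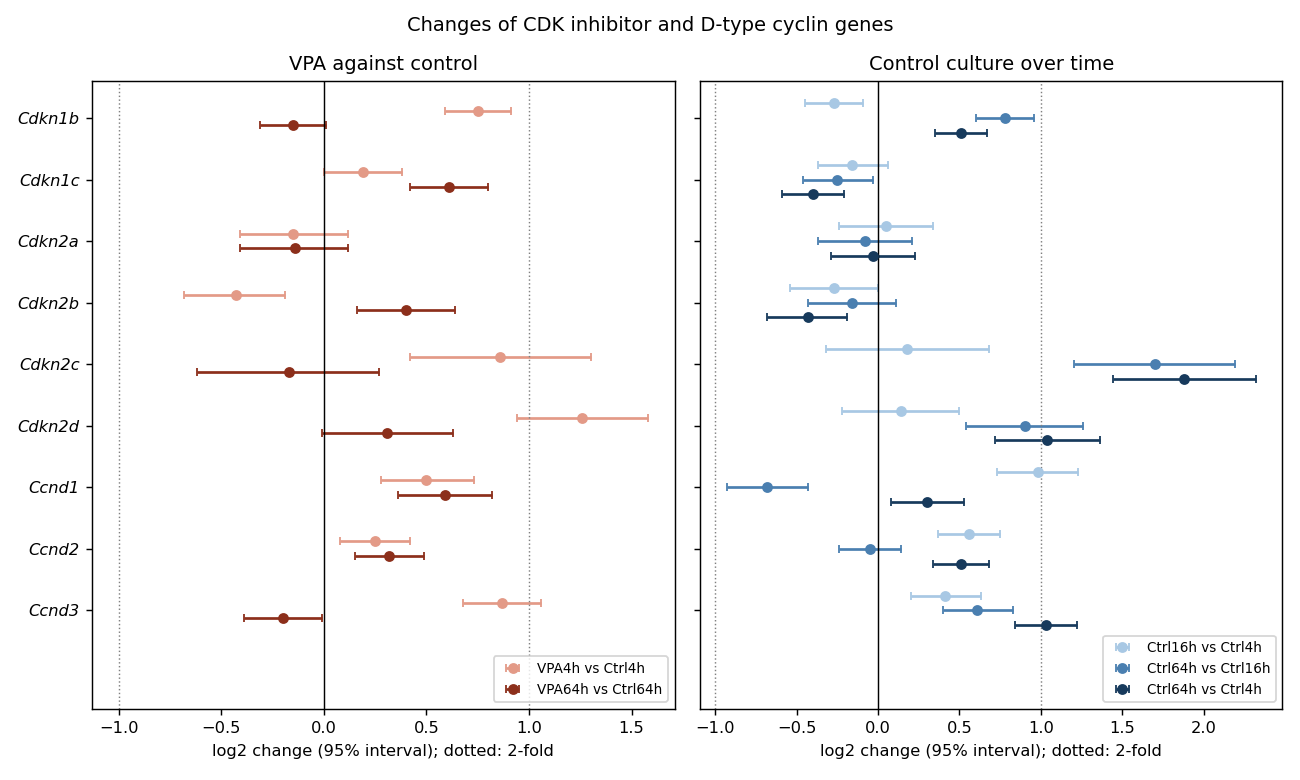
Log2 change with its 95% interval (horizontal axis) for each of the 9 members (vertical axis), with VPA against control on the left and control culture over time on the right, and dotted lines at 2-fold. Cdkn2d in VPA4h, at 1.26, is the only VPA effect past the dotted line, and Cdkn2c in Ctrl64h against Ctrl4h, at 1.88, is the largest change in culture.

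Whether VPA acted differently at the 2 times was tested by the difference of its effects, that at 64 h minus that at 4 h. Cdkn2c and Ccnd3 fell in this comparison, 2 of 9 members, where 1.7% of all tested probe sets did, with -1.03 ± 0.30 (adjusted p 0.025) and -1.07 ± 0.13 (adjusted p 3.71e-05). At any size Cdkn1b, Cdkn2c, Cdkn2d and Ccnd3 were lower, 4 of 9 against 8.33% of all probe sets. Cdkn1c and Cdkn2b were higher, 2 of 9 against 7.54%. The members thus split in this comparison. Cdkn1b gave -0.90 ± 0.11 with an adjusted p of 4.27e-05 and Cdkn2d gave -0.95 ± 0.21 with an adjusted p of 0.00542, whereas Cdkn2b gave 0.83 ± 0.16 with an adjusted p of 0.00194 and Cdkn1c 0.42 ± 0.13 with an adjusted p of 0.0329. For Ccnd1 and Ccnd2 the effects differed by 0.09 and 0.07, with adjusted p of 0.784 and 0.76 and 95% intervals of -0.23 to 0.41 and -0.17 to 0.32. The Cdkn2c difference depended on single arrays, with adjusted p of 0.0604 to 0.0688 without any one of Ctrl4h replicate 1, VPA4h replicate 1, VPA4h replicate 2, Ctrl64h replicate 1 or VPA64h replicate 3. It was 0.0731 when probe sets without a symbol were tested as well. For Cdkn1c 10 of the 23 limma alternatives gave an adjusted p of 0.05 or more, among them 0.51 when centred on housekeeping genes and 0.0527 to 0.0886 without any one of Ctrl4h replicate 2, VPA4h replicate 1 or 3, VPA64h replicate 1 or a Ctrl64h array.

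In control culture without VPA, Cdkn2c, Cdkn2d and Ccnd3 rose between Ctrl64h and Ctrl4h, 3 of 9 members, where 6.68% of all tested probe sets rose, and no member fell, where 3.71% of all did. At any size 6 members were higher in Ctrl64h, against 25% of all probe sets, and Cdkn1c and Cdkn2b were lower, against 31.6%. For Ccnd1, at 0.30 ± 0.11, 7 of the 23 limma alternatives gave an adjusted p of 0.05 or more, among them those without Ctrl4h replicate 2 or 3 or Ctrl64h replicate 1 or 3. The median member change was 0.51, compared with -0.09 over all tested probe sets. Between Ctrl16h and Ctrl4h none of the 9 passed both limits, where 1.91% of all probe sets did, and at any size Ccnd1, Ccnd2 and Ccnd3 were higher, 3 of 9 against 12.8%, and Cdkn1b was lower, against 7.32%. Centred on housekeeping genes, which moved every probe set by -0.38 here, Ccnd1 gave 0.60 and still passed, whereas Ccnd2 gave 0.18 and Ccnd3 0.03, with adjusted p of 0.139 and 0.802. For Ccnd3 the adjusted p was also 0.0954 without Ctrl16h replicate 2. Between Ctrl64h and Ctrl16h only Cdkn2c rose, 1 of 9 against 4.52%. At any size Cdkn1b, Cdkn2c, Cdkn2d and Ccnd3 were higher in Ctrl64h than in Ctrl16h, 4 of 9 against 19.2%, and Ccnd1 was lower, against 23.9%. Under VPA no member passed both limits between VPA64h and VPA4h, where 7.55% of all probe sets did. At any size Cdkn2b, Cdkn2c, Ccnd1 and Ccnd2 were higher in VPA64h than in VPA4h, 4 of 9 against 23.2%, and Cdkn1b was lower, against 27.1%. These 4 were 0.40, 0.85, 0.39 and 0.58, but with arrays centred on housekeeping genes, which moved every probe set by -0.53 here, they became -0.13, 0.32, -0.14 and 0.06, with adjusted p of 0.173 to 0.57. For Cdkn1b the change was -0.92 with this centring. The centring shifted each array by the median level of 12 housekeeping genes. The median of their own changes was smaller, at 0.12 between VPA64h and VPA4h, where 1 of them rose and 1 fell. Between Ctrl16h and Ctrl4h it was 0.19.

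The kinases that bind the members and the genes downstream of them were described from lists of known pathway genes. Among 4 CDKs none rose or fell with VPA at either time. Cdk2, the partner of cyclins E and A, averaged 8.81 ± 0.10 in VPA4h and 7.91 ± 0.07 in Ctrl4h (SD, n = 3 each), and was higher by 0.90 ± 0.09 with an adjusted p of 2.88e-06. Cdk4 and Cdk6, the partners of D-type cyclins, differed by -0.07 ± 0.08 and 0.11 ± 0.08 between VPA4h and Ctrl4h, with adjusted p of 0.648 and 0.475. In control culture Cdk6 rose by 1.29 ± 0.08 in Ctrl64h against Ctrl4h with an adjusted p of 3.46e-09. Cdk1, the mitotic kinase, averaged 7.83 ± 0.20 in VPA64h and 8.75 ± 0.06 in Ctrl64h (SD, n = 3 each), and was lower with VPA by 0.92 on the log2 scale (change -0.92 ± 0.12, adjusted p 5.87e-05).

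Most of the measured cyclins E, A and B, which act after the D-type cyclins, fell with VPA at 64 h. Of 4 measured genes 3 fell in VPA64h against Ctrl64h, with a list median of -1.52 compared with 0 over all tested probe sets, where 1.14% of all probe sets fell. Ccna2, a cyclin of S phase and mitosis, averaged 5.98 ± 0.14 in VPA64h and 8.03 ± 0.23 in Ctrl64h (SD, n = 3 each), a change of -2.05 ± 0.11 with an adjusted p of 9.76e-09. Ccne2, a cyclin of the entry into S phase, changed by -1.89 ± 0.10 and the mitotic cyclin Ccnb2 by -1.16 ± 0.12, with adjusted p of 7.82e-09 and 3.61e-06. Ccne1 did not follow them, with -0.10 ± 0.09 and an adjusted p of 0.47. At 4 h it was the 1 cyclin of the list that passed, higher in VPA4h than in Ctrl4h by 0.95 ± 0.09 with an adjusted p of 1.05e-06.

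All 20 E2F target and proliferation genes were lower in VPA64h than in Ctrl64h at any size, against 11.2% of all probe sets, and 6 of them fell. Their median was -0.91, compared with 0 over all tested probe sets. Bub1, a mitotic checkpoint kinase, Top2a, a topoisomerase of dividing cells, and Rrm2, a subunit of ribonucleotide reductase, changed by -1.81 ± 0.11, -1.67 ± 0.09 and -1.52 ± 0.12, with adjusted p of 1.45e-08, 7.71e-09 and 4.73e-07. In control culture 12 of the 20 rose in Ctrl64h against Ctrl4h, where 6.68% of all did, with a median of 1.23 compared with -0.09 over all tested probe sets. Between VPA4h and Ctrl4h none of the 20 rose or fell and the median was 0.04, although 5 were higher, against 11.5% of all, and 1 was lower, against 9.96%, at any size. Among them Mcm4 and Mcm6, subunits of the replicative helicase, averaged 7.85 and 7.39 in VPA4h and 6.90 and 6.47 in Ctrl4h. At 64 h Mcm4 and Mcm6 averaged 7.72 and 7.79 in VPA64h and 8.67 and 8.76 in Ctrl64h, and the difference of their VPA effects was -1.90 ± 0.12 and -1.89 ± 0.12, with an adjusted p of 3.09e-07 for each.

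**Figure D3:**
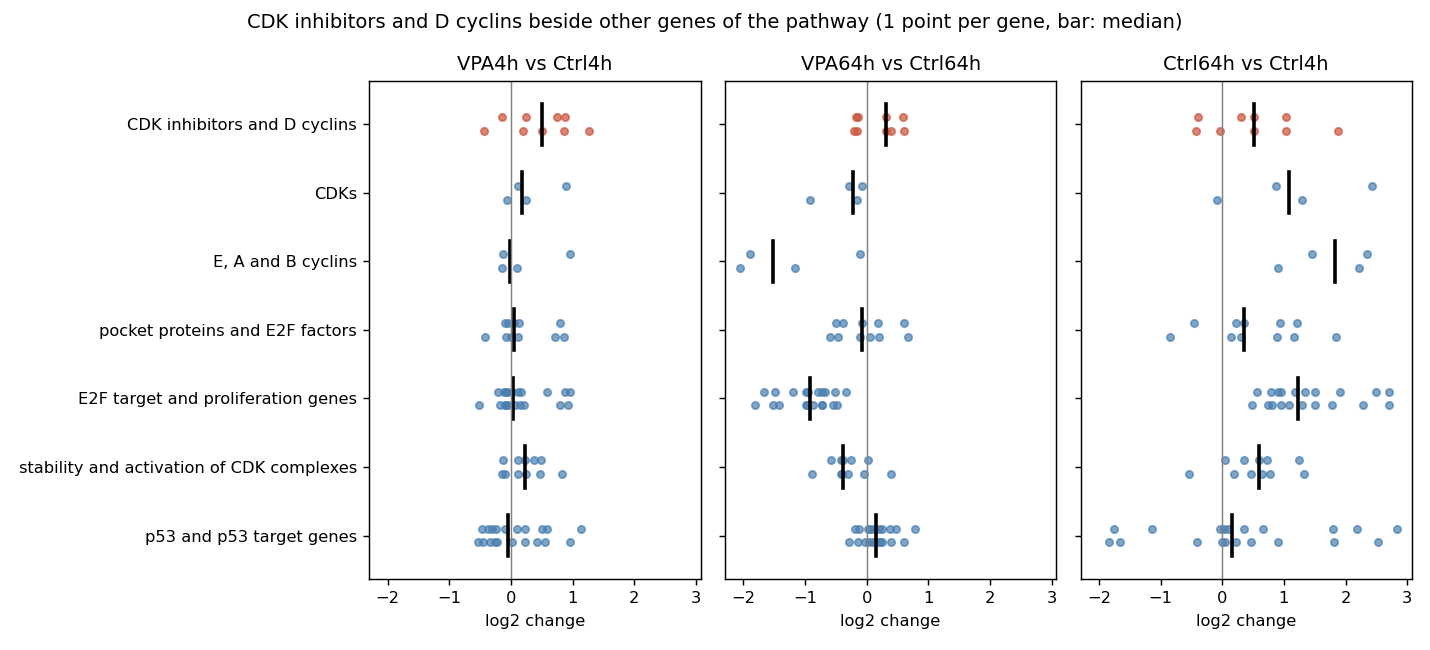
Log2 change (horizontal axis) of each gene, 1 point per gene with a bar at the median, for the 9 members (red) and 6 lists of the pathway (blue) in 3 comparisons. For VPA64h against Ctrl64h the medians of the E, A and B cyclins, at -1.52, and of the E2F target and proliferation genes, at -0.91, lie left of 0, whereas the median of the members, at 0.31, lies right of it.

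The retinoblastoma family, the substrates of the D-type cyclin kinases, was higher with early VPA. Rb1, Rbl1 and Rbl2 averaged 7.88 ± 0.08, 6.44 ± 0.12 and 6.85 ± 0.08 in VPA4h, against 7.09 ± 0.04, 5.58 ± 0.09 and 6.13 ± 0.09 in Ctrl4h (SD, n = 3 each). The differences were 0.79 ± 0.09, 0.86 ± 0.09 and 0.72 ± 0.10, with adjusted p of 1.41e-05, 3.55e-06 and 6.38e-05. They were the 3 higher genes of the 11 in the list of pocket proteins and E2F factors, against 11.5% of all tested probe sets, and the list median was 0.05. E2f6 was the 1 lower gene, against 9.96%, with a change of -0.42 ± 0.10 and an adjusted p of 0.00435. In VPA64h Rb1 and Rbl2 were still higher than in Ctrl64h, by 0.67 ± 0.09 and 0.61 ± 0.10 (adjusted p 8.82e-05 and 0.000369), 2 of the 11 against 12.8% of all tested probe sets. Rbl1 differed by 0.06 ± 0.09, with an adjusted p of 0.696. E2f1, E2f6, E2f7 and E2f8 were lower, 4 of the 11 against 11.2%, with changes between -0.60 and -0.38.

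Of the 11 genes for the stability and activation of CDK complexes none rose or fell with VPA at either time. Wee1, a kinase that inhibits CDKs, was higher in VPA4h than in Ctrl4h by 0.82 ± 0.09 with an adjusted p of 4.01e-06 and lower in VPA64h than in Ctrl64h by 0.41 on the log2 scale (change -0.41 ± 0.09, adjusted p 0.00242). Skp2, which targets p27Kip1 for degradation, was higher in VPA4h by 0.47 ± 0.11 with an adjusted p of 0.00538. So was Cdc25a, by 0.49 ± 0.11 with an adjusted p of 0.00368. These were the 3 of the 11 that were higher in VPA4h at any size, against 11.5% of all tested probe sets, and none was lower, against 9.96%. At 64 h 7 of the 11 were lower with VPA at any size, against 11.2% of all tested probe sets, among them Cdc25a and Cdc25c, phosphatases that activate CDKs, with -0.41 ± 0.11 and -0.88 ± 0.10 (adjusted p 0.0122 and 1.26e-05).

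In the list of p53 and its targets 20 of 22 genes were measured. Trp53, the gene of p53 itself, and Bax had no probe set of their own. Of the 20 genes 6 rose and 2 fell between Ctrl16h and Ctrl4h, where 1.91% of all tested probe sets rose or fell. Their median was 0.13, compared with -0.01 over all tested probe sets. Phlda3, Ccng1 and Eda2r, all p53 targets, rose by 2.37 ± 0.09, 2.34 ± 0.09 and 2.31 ± 0.13, with adjusted p of 5.53e-10, 5.53e-10 and 3.5e-08. The only called gene in VPA4h was Trp53inp1, a p53-induced nuclear protein, which rose against Ctrl4h by 1.14 ± 0.09 with an adjusted p of 3.78e-07. None of the 20 rose or fell in VPA64h against Ctrl64h. At any size 6 were higher and 5 lower in VPA4h, against 11.5% and 9.96% of all tested probe sets. In VPA64h 6 were higher and 0 lower, against 12.8% and 11.2%. Of 12 measured Polycomb and demethylase genes known to act on the Ink4 locus none rose or fell with VPA. At any size 5 of them were higher and 1 lower in VPA4h than in Ctrl4h, and 2 were higher and 1 lower in VPA64h than in Ctrl64h. In control culture the methyltransferase Ezh2 rose by 1.80 ± 0.09 and the demethylase Kdm6b fell, with a change of -2.05 ± 0.15, between Ctrl64h and Ctrl4h (adjusted p 2.47e-10 and 1.29e-08). Among 16 transcription factors that act on the members 4 were higher and 5 lower in VPA4h at any size, against 11.5% and 9.96% of all tested probe sets. In VPA64h 6 were higher and 2 lower than in Ctrl64h, against 12.8% and 11.2%. Only Foxo1, an activator of Cdkn1b, rose in VPA4h against Ctrl4h, by 1.16 ± 0.10 with an adjusted p of 5.52e-07. Only Egr1, an immediate early factor, rose in VPA64h against Ctrl64h, by 1.69 ± 0.19 with an adjusted p of 1.16e-05. In control culture 4 of the 16 fell in Ctrl64h against Ctrl4h, where 3.71% of all did, and none rose. One of them was Myc, which represses several CDK inhibitor genes, with a change of -2.31 ± 0.14 and an adjusted p of 1.23e-09. Myc averaged 10.83 in VPA4h and 11.68 in Ctrl4h, and 8.73 in VPA64h and 9.37 in Ctrl64h.

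The marker lists were set beside these results. Between VPA4h and Ctrl4h, where 7 of the 9 members differed at any size, none of the hepatocyte, Kupffer cell, lymphocyte, or cholangiocyte and mesothelial markers passed at any size, and of 14 endothelial markers 2 were higher and 1 was lower. Between VPA64h and Ctrl64h 1 of the 14 endothelial markers rose and 2 fell, and at any size 2 were higher and 6 lower. At any size 3 of 14 Kupffer cell markers, 1 of 15 hepatocyte markers and 1 of 11 cholangiocyte and mesothelial markers were lower and none of these was higher, no lymphocyte marker passed, and of the 14 HSC markers 3 were higher and 6 lower, of which 3 fell. The 3 HSC markers that fell were Col3a1, Lox and Acta2, with changes of -2.06 ± 0.19, -1.73 ± 0.20 and -1.17 ± 0.13. The study names these 3 as genes of HSC activation. Reln and Des averaged 11.09 and 9.85 in VPA64h and 10.72 and 10.55 in Ctrl64h. The sums of the endothelial and HSC lists were lower in VPA64h, as given above, and the HSC sum includes the activation genes. On the linear scale Plvap and Ehd3 made up most of the endothelial sum. They averaged 9.97 and 10.24 in VPA64h and 10.93 and 11.49 in Ctrl64h. Ehd3 and Emcn fell in VPA64h against Ctrl64h, with changes of -1.24 ± 0.15 and -1.13 ± 0.14, whereas Esam rose by 1.03 ± 0.09. The hepatocyte sums at 64 h, 810 to 1435 in VPA64h and 979 to 1608 in Ctrl64h, overlapped. At any size 7 of 15 hepatocyte, 6 of 14 Kupffer cell and 6 of 12 lymphocyte markers were lower in Ctrl64h than in Ctrl4h. None of these was higher. Of the endothelial, HSC, and cholangiocyte and mesothelial markers 7, 6 and 3 were lower and 2, 5 and 2 higher. Of all tested probe sets 31.6% were lower and 25% higher. The lymphocyte sums were 713 to 1206 in Ctrl4h and 397 to 448 in Ctrl64h. The part of these cells in the members' values at 64 h was not tested.

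Finally, the genes with the pattern most alike to the 3 members of the widest range were listed, by the smallest root mean square difference over the 14 arrays after centring each gene on its own mean. For Cdkn2c these were Ncaph, a condensin subunit, at 0.21, Ugp2, an enzyme that makes UDP-glucose, at 0.25, and Bnip3, a mitochondrial protein, at 0.27. For Cdkn2d they were Wipi1, an autophagy protein, Asf1a, a histone chaperone, and Stard8, at 0.20 each. Wipi1 averaged 8.79 in VPA4h and 7.82 in Ctrl4h, 7.90 in Ctrl16h, and 8.92 in VPA64h and 8.76 in Ctrl64h. For Ccnd3 they were Rfwd3, a ubiquitin ligase, at 0.11, Mpv17l2, a mitochondrial protein, at 0.12, and G3bp2, a stress granule protein, at 0.14. The pattern shared with Ccnd3 was a higher level in VPA4h than in Ctrl4h and a level in VPA64h close to that in Ctrl64h, as for Rfwd3 with 8.36 in VPA4h and 7.61 in Ctrl4h, and 8.49 in VPA64h and 8.67 in Ctrl64h. All points share the same arrays, and likeness is a description.

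**Figure D4:**
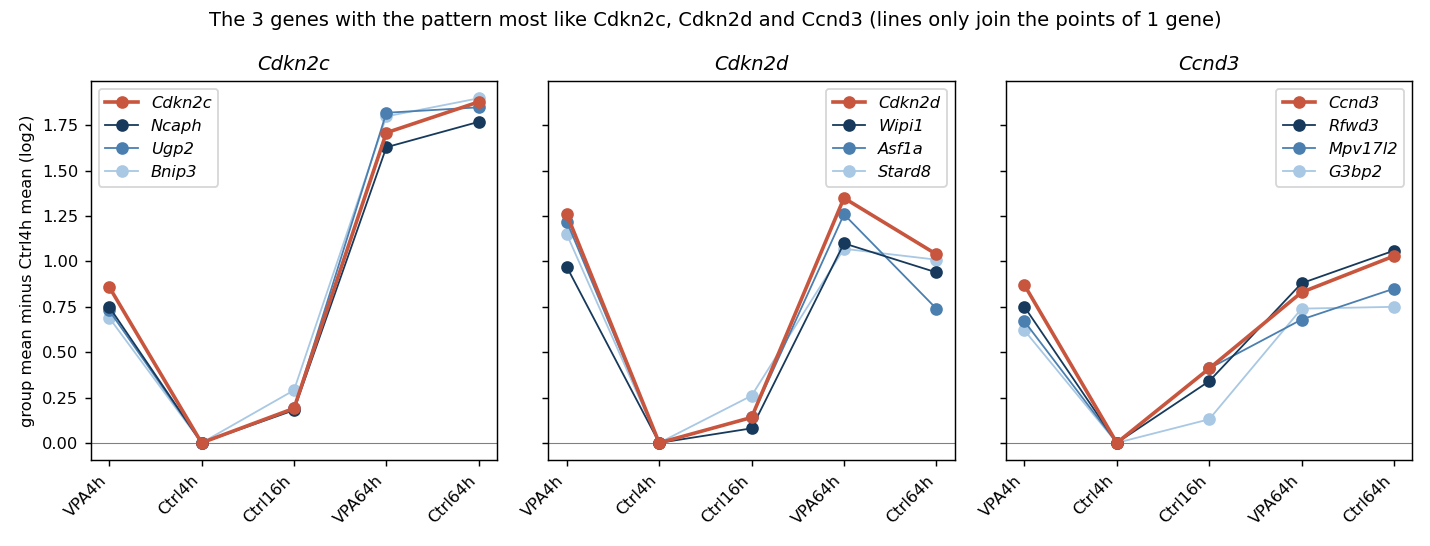
Group means minus the Ctrl4h mean (vertical axis, log2) in the 5 groups (horizontal axis) for Cdkn2c, Cdkn2d and Ccnd3 (red) and, in blue, the 3 genes most like each of them, where lines only join the points of 1 gene. The members reach 0.86, 1.26 and 0.87 in VPA4h.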

How the data were processed

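RNA of cultured mouse HSCs was hybridised to Affymetrix Mouse Gene ST arrays, with 14 arrays in 5 groups. The authors deposited a table of log2 values, produced with RMA (the background is corrected, arrays are quantile normalised and probes summarised). The submitters' processing notes name Affymetrix Expression Console and the study's methods another program for this step, neither version being given in the sources used here. Quantile normalisation fixes the distribution of each array, so values are relative to the other genes, and the number of arrays limits the precision, since arrays give no counts.

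Of 35557 probe sets, 21789 carried 1 gene symbol, 1621 several and 12147 none in GEO's platform annotation. Tests covered the 23410 with a symbol, and a gene name was taken only where a probe set had 1. All 5 groups were fitted together in limma 3.58.1 (R 4.3.3) by lmFit and eBayes, with 9 residual and 6.52 prior degrees of freedom. All tests were two-sided with Benjamini-Hochberg adjustment over the tested probe sets, in 7 contrasts. A call needed at least a 2-fold change besides an adjusted p under 0.05, limits taken from the study's methods, which used a one-way test. The fit was tested on simulated data. According to the methods the replicates were biological and independent. The members of the list and the lists of other genes were chosen with earlier results of these data known. Named were the 9 measured members in every contrast, of each list up to 3 called genes with the largest change, and the 3 most alike genes of the 3 members with the widest range. Cdk2, Cdk4, Ccne1, Mcm4 and Mcm6 at single times and the retinoblastoma and E2F genes were named in addition, after their values were seen. So were Wee1, Skp2, Cdc25a, Cdc25c, Reln, Des, Gfap and Plvap, all to complete their lists.

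Whether replicate numbers pair the arrays was checked by the correlation of deviations from the group means. It was 0.14 to 0.28 for the 3 same-numbered pairs of VPA4h and Ctrl4h and 0.16 to 0.17 for those of VPA64h and Ctrl64h. Over all 26 same-numbered pairs of groups it ranged from -0.24 to 0.28. The numbers may thus mark pairs of VPA and control arrays within a time. The main fit, which gave the SE, intervals and adjusted p of the results, used group means only and no pairing. The replicate number entered as a block in an alternative fit only. Alternatives were moderated-test settings, the samples in the fit, the replicate block, filters on dim probe sets, all probe sets, 2 further normalisations, averaged probe sets, fold limits, the one-way test, and leaving out each array.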

Additional observations from a re-analysis of the deposited data

Results flagged for a closer look

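For 6 of the 9 members the VPA effect differed between 64 h and 4 h, tested as 1 contrast of the limma fit (effect at 64 h minus effect at 4 h). Of all tested probe sets 8.33% were lower and 7.54% higher in this contrast. The difference was -0.90 for Cdkn1b, -1.03 for Cdkn2c, -0.95 for Cdkn2d and -1.07 for Ccnd3, which were higher with VPA at 4 h and gave changes of -0.15, -0.17, 0.31 and -0.20 at 64 h, none past the limit. It was 0.42 for Cdkn1c, which was higher with VPA at 64 h and gave 0.19 at 4 h, not past the limit, and 0.83 for Cdkn2b, which was lower with VPA at 4 h and higher at 64 h. The differences of Cdkn1c and Cdkn2c were not secure, since 10 and 6 of the 23 limma alternatives gave an adjusted p of 0.05 or more. No group held more than 3 arrays, so single arrays were not tested for standing apart from their group.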

How the results depend on the processing

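With the replicate number as a block the counts of members called were those of the fit without it, 0 for Ctrl16h against Ctrl4h, 1 for Ctrl64h against Ctrl16h, 3 for Ctrl64h against Ctrl4h, 1 for VPA4h against Ctrl4h, 0 for VPA64h against Ctrl64h, 0 for VPA64h against VPA4h and 2 for the difference of VPA effects, and the block changed no other call at any size than that of Cdkn1b at 16 h, given above. In the same order, no fold limit gave 4, 5, 8, 7, 4, 5 and 6 members, and a limit of 1.5-fold gave 1, 5, 3, 4, 2, 1 and 5. Centring on 12 housekeeping genes gave 2 for Ctrl64h against Ctrl16h, 1 for Ctrl64h against Ctrl4h, 3 for VPA4h against Ctrl4h and 4 for the difference, and moved all genes by -0.53 to 0.19, whereas a further quantile normalisation gave 1 for Ctrl64h against Ctrl4h. Testing all probe sets gave 1 for the difference. Leaving out each array gave 0 to 1, 1 to 2, 2 to 3, 1 to 1, 0 to 0, 0 to 1 and 1 to 3 members. Without VPA64h replicate 3, Cdkn2c rose in VPA64h against VPA4h by 1.05, and without Ctrl16h replicate 1 Cdkn2d rose in Ctrl64h against Ctrl16h by 1.08.

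Of 1680 values of single genes under the alternatives 1607 kept their direction and their call or lack of one at 2-fold, 15 lost and 13 gained such a call, and 45 changed sign, none of them such a call. By the adjusted p alone, 70 of the 1610 values from limma lost and 12 gained a call at any size. Centred on housekeeping genes, Cdkn2a gave -0.33 for Ctrl16h against Ctrl4h, 0.06 for Ctrl64h against Ctrl16h, 0.05 for VPA4h against Ctrl4h and -0.28 for the difference. For VPA64h against VPA4h this centring gave -0.51 for Cdkn1c, -0.13 for Cdkn2b, -0.44 for Cdkn2d and -0.14 for Ccnd1. It gave -0.20 for Cdkn2c and -0.24 for Cdkn2d in Ctrl16h against Ctrl4h, 0.09 for Ccnd2 in Ctrl64h against Ctrl16h, -0.20 for Ccnd1 and -0.21 for Ccnd2 in the difference, and -0.05 for the probe set of Cdkn1a and 4930567H12Rik in VPA64h against Ctrl64h. Quantile normalised once more, VPA64h against VPA4h gave -0.14 for Cdkn1c, 0.05 for Cdkn2a and -0.02 for Cdkn2d, Ctrl64h against Ctrl4h 0.07 for Cdkn2a, and the difference -0.02 for Cdkn2a. Leaving out each array, VPA64h against VPA4h ranged from -0.06 to 0.07 for Cdkn1c, -0.14 to 0.06 for Cdkn2a, -0.02 to 0.20 for Cdkn2d and -0.10 to 0.02 for Ccnd3. Cdkn2a ranged from -0.03 to 0.13 for Ctrl16h against Ctrl4h, -0.17 to 0.04 for Ctrl64h against Ctrl16h, -0.12 to 0.09 for Ctrl64h against Ctrl4h and -0.12 to 0.09 for the difference. Ctrl16h against Ctrl4h ranged from -0.02 to 0.29 for Cdkn2c and -0.04 to 0.32 for Cdkn2d, and Ctrl64h against Ctrl16h from -0.10 to 0 for Ccnd2. VPA64h against Ctrl64h ranged from -0.34 to 0.03 for Cdkn2c and -0.01 to 0.08 for the probe set of Cdkn1a and 4930567H12Rik, and the difference from -0.04 to 0.17 for Ccnd1. The cause of these changes was not tested. With 3 arrays a group, and 2 at 16 h, small changes could not be told from the spread.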
